A study of Mus musculus with 10 samples.

Results

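Innate lymphoid cells (ILCs) sorted from the epidermis of mouse skin were set against ILCs sorted from its subcutaneous layer by RNA sequencing. The groups follow the sample titles: 3 libraries titled epidermal and 3 titled subcutaneous, 6 of the 10 libraries of the study. All were from adult B6 mice, and the labels name no treatment and no genetic change in either group. The other 4 libraries, 2 of dermal CCR6+ ILCs and 2 of dermal Sca1+ ILCs, entered the fit that estimates the spread and are quoted as values only. The labels give neither the gates of the epidermal and subcutaneous sorts nor whether the replicates came from separate animals, so the p-values measure the spread between these samples, which may be technical.

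ILCs are tissue lymphocytes that respond to cytokines and alarm signals without a rearranged antigen receptor. Type 2 ILCs depend on GATA3 and RORα, carry receptors for epithelial alarmins such as IL-33, IL-25 and TSLP, and make IL-5, IL-13, GM-CSF and amphiregulin. Type 3 ILCs often carry CCR6 and make IL-17, IL-22 and lymphotoxin. In skin, ILCs lie beside keratinocytes and sebaceous glands in the epidermis and beside fibroblasts, macrophages, vessels and fat in the deeper layer, so RNA of those cells may also reach a sorted library.

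Each library held between 12703447 and 18118544 expected counts, and 3 counts were worth 0.149 to 0.238 CPM (a count divided by the size of its library, after adjustment by the trimmed mean of M values, TMM). In every sentence the values of a group run from replicate 1 to replicate 3. The pan-leukocyte gene Ptprc (CD45) had 1270.4, 752 and 641 CPM in epidermal libraries, against 1209, 1327 and 1094 CPM in subcutaneous libraries, and did not pass the test (log2 fold change -0.45 ± 0.24, adjusted p = 0.223). The IL-7 receptor gene Il7r, a defining ILC marker, had 485, 488 and 479 CPM in epidermal libraries, against 588, 583 and 521 CPM in subcutaneous libraries (adjusted p = 0.323). The ILC regulator Id2 had 1392, 1433 and 1609 CPM in epidermal libraries, against 2034, 2010.0 and 1716 CPM in subcutaneous libraries (adjusted p = 0.11). The 3 markers named for any ILC were thus present in all 6 libraries. Cd3e, a T cell receptor subunit gene, had 10.6, 12.7 and 12.8 CPM in epidermal libraries, against 11.8, 48.1 and 1.98 CPM in subcutaneous libraries, with subcutaneous replicate 2 the highest of the 6.

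Of 16208 genes tested with edgeR's quasi-likelihood test, 3268 passed a Benjamini-Hochberg adjusted p of 0.05, which is 20.2% of all tested. Epidermal libraries were higher in 1113 (6.87%) and lower in 2155 (13.3%), and in 6442 genes (39.7%) the 3 epidermal and 3 subcutaneous values did not overlap. These shares over all genes stand beside every list count and every statement below that groups did not overlap. No list was tested against them. The median log2 fold change over all genes, epidermal minus subcutaneous, was -0.02. The split depended on the scale: with size factors from 26 pan-lymphocyte genes it was 698 higher and 2970 lower around a median of -0.35, and with limma on log2(TPM + 1) (TPM is a length-scaled transcript abundance) it was 2051 higher and 2230 lower. No gene called in the main fit was called in the opposite direction in any of the 21 alternatives. Among the called members of the lists and the named genes, 357 of 501 passed under every alternative that tested them.

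A library in each group stood apart from its own replicates. Epidermal replicate 1 was low in keratinocyte transcripts: its called differentiated keratinocyte genes had a median log2 ratio of -1.51 to the mean of epidermal replicates 2 and 3, against -0.22 over all genes called higher. Subcutaneous replicate 2 was high in macrophage genes (median log2 ratio 0.85 to the mean of subcutaneous replicates 1 and 3), in interferon response genes (0.76) and in type 1 ILC and natural killer (NK) cell genes (2.61), against 0.08 over all genes called lower. Some counts below are also given without 1 library.

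**Figure D1:**
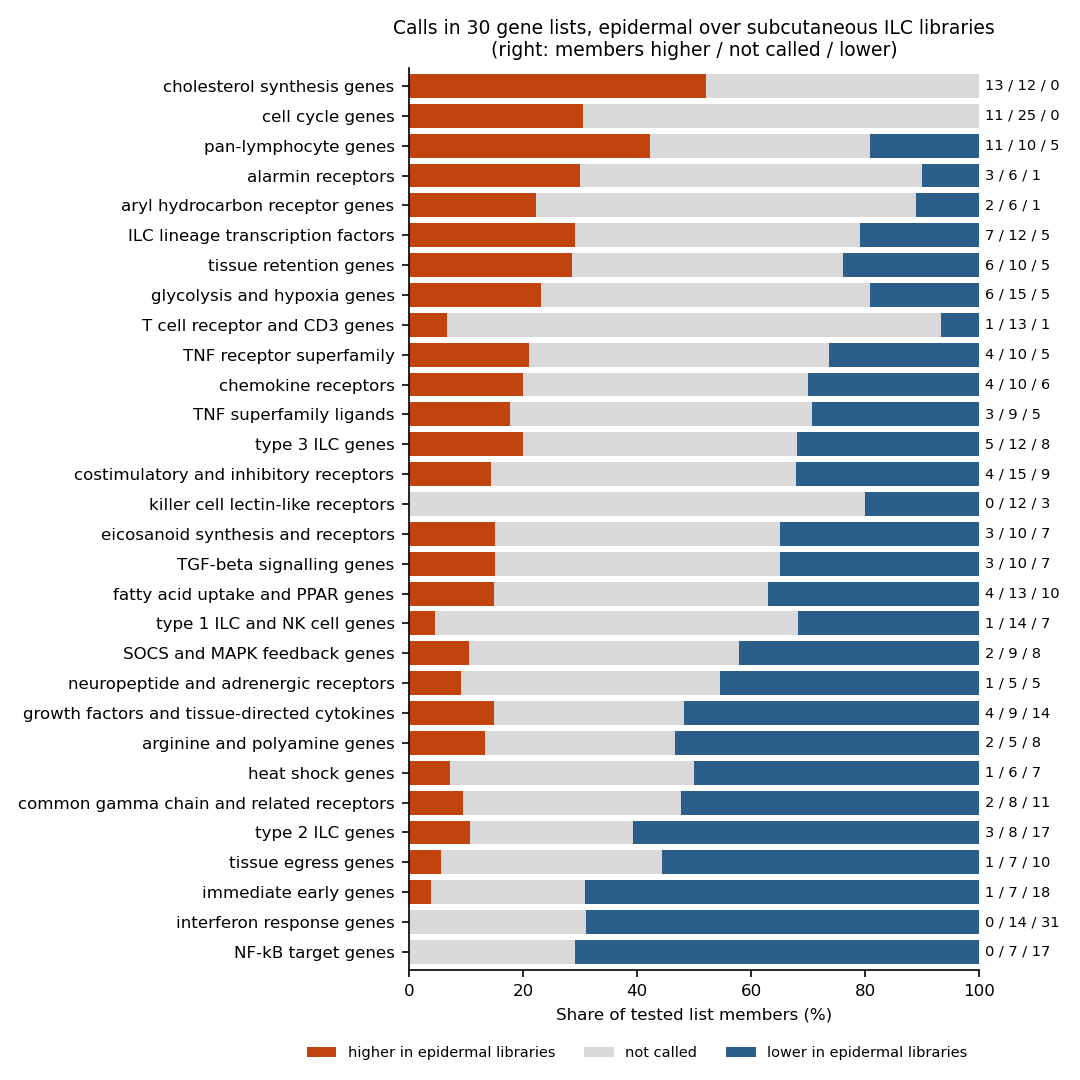
Bars show, for 30 gene lists, the share of tested members (%, horizontal axis) called higher in epidermal libraries (red), not called (grey) and called lower (blue), with the 3 counts at the right. Cholesterol synthesis genes are at the top with 13 of 25 higher and 0 lower, and NF-kB target genes at the bottom with 0 higher and 17 of 24 lower.

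The transcription factors that set ILC identity differed between the layers. In bulk samples such as these, fewer cells of a type and less RNA per cell cannot be told apart. Of 24 tested, 7 were higher, 5 lower and 12 not called. Tcf7, which encodes TCF-1, a factor of early ILC development, had 416, 245 and 345 CPM in epidermal libraries, against 72.5, 125 and 51.8 CPM in subcutaneous libraries (log2 fold change 2.01 ± 0.32, adjusted p = 0.00161). Maf, which encodes c-MAF, had 143, 216 and 176 CPM in epidermal libraries, against 40.4, 51.2 and 74.5 CPM in subcutaneous libraries (log2 fold change 1.69 ± 0.26, adjusted p = 0.00125). Every epidermal library lay above every subcutaneous one for both genes. In the other direction, Gata3 (chromosome 2, 9857078 to 9890034, GRCm38) had 546, 491 and 515 CPM in epidermal libraries, against 2000.5, 1294 and 1513 CPM in subcutaneous libraries (log2 fold change -1.63 ± 0.19, adjusted p = 0.000184). Rora, which encodes RORα, had 859.9, 911 and 769.8 CPM in epidermal libraries, against 2449, 1937 and 1976 CPM in subcutaneous libraries (log2 fold change -1.32 ± 0.16, adjusted p = 0.000254). Both type 2 factors were thus present in all 6 libraries and lower in the epidermal ones. Bach2, which encodes a repressor of effector genes in lymphocytes, was lower too, with 17.3, 17.8 and 15.3 CPM in epidermal libraries, against 95.5, 52.9 and 64.8 CPM in subcutaneous libraries (log2 fold change -2.08 ± 0.30, adjusted p = 0.000843). Without epidermal replicate 1 there were 4 higher and 7 lower, without epidermal replicate 3 there were 4 and 4, and without both epidermal replicate 1 and subcutaneous replicate 2 there were 3 and 7. Without subcutaneous replicate 2 alone, the counts were 5 higher and 5 lower, and the list's median log2 fold change was 0.04 in place of -0.37.

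Genes of the antigen receptor signalling cascade, which ILCs share with T cells, were partly higher in the epidermal libraries. Among 26 pan-lymphocyte genes, 11 were higher, 5 lower and 10 not called (median 0.20), and leaving out epidermal replicate 1 or subcutaneous replicate 2 gave 8 higher and 4 lower in each case. Leaving out epidermal replicate 2, epidermal replicate 3 or subcutaneous replicate 3 left 3 lower. Lck, a proximal tyrosine kinase, had 660.0, 619 and 591 CPM in epidermal libraries, against 69.8, 203 and 96.3 CPM in subcutaneous libraries (log2 fold change 2.34 ± 0.36, adjusted p = 0.00122). Thy1, the surface marker CD90, had 168, 257 and 156 CPM in epidermal libraries, against 60.98, 95.98 and 99.7 CPM in subcutaneous libraries (log2 fold change 1.18 ± 0.26, adjusted p = 0.00906). Its values did not overlap between the groups. Ptprcap, which encodes the CD45-associated protein, had 610.0, 839.6 and 726 CPM in epidermal libraries, against 191, 302 and 408 CPM in subcutaneous libraries (log2 fold change 1.27 ± 0.26, adjusted p = 0.0062). Stat4, the transducer of IL-12 signals, moved the other way, with 23.2, 6.62 and 16.3 CPM in epidermal libraries, against 139.9, 192 and 117 CPM in subcutaneous libraries (log2 fold change -3.28 ± 0.42, adjusted p = 0.000366). When the scale was set by this list itself, 8 genes were higher and 8 lower, and its median was -0.13.

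**Figure D2:**
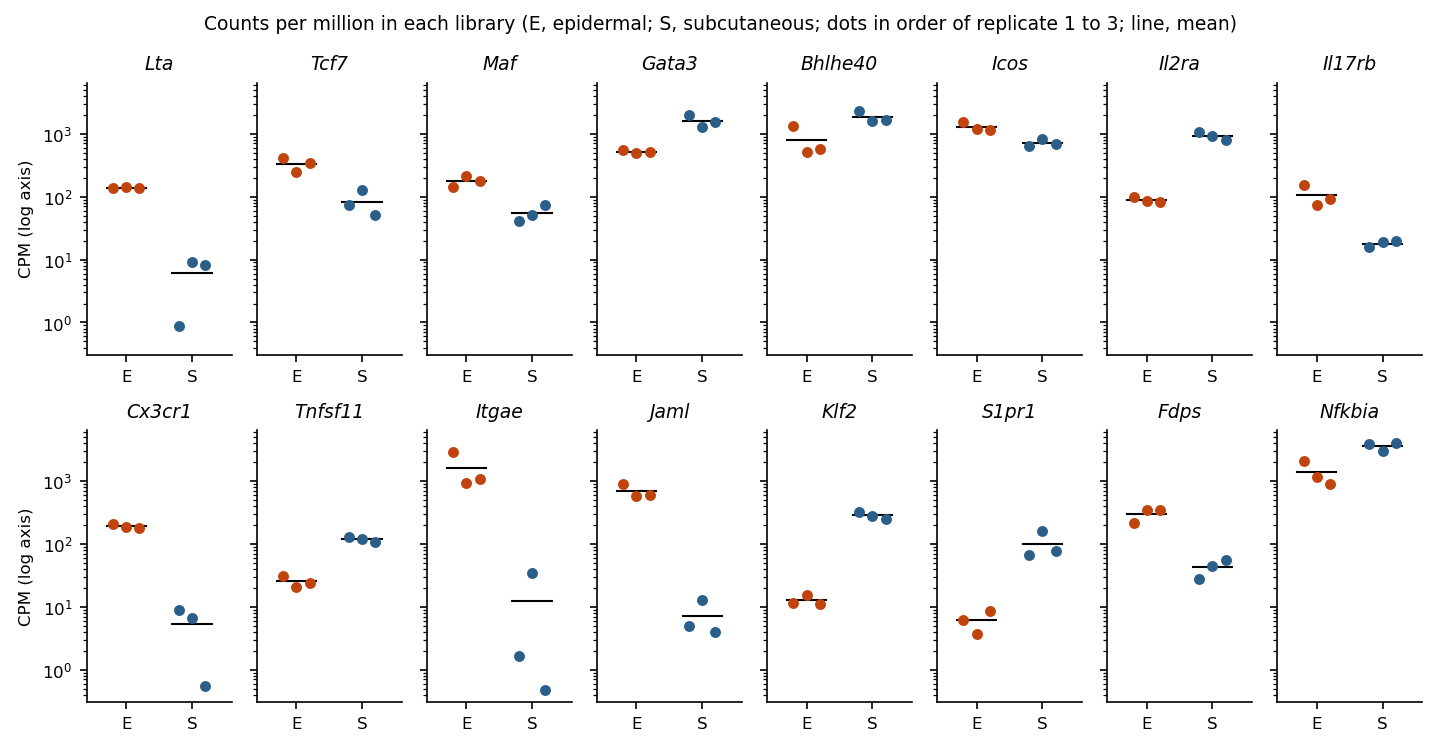
Dots are the CPM (log axis) of 16 lymphocyte genes in the 3 epidermal (E, red) and 3 subcutaneous (S, blue) libraries, in order of replicate, and lines are group means. Lta, Tcf7, Maf, Icos, Il17rb, Cx3cr1, Itgae, Jaml and Fdps are higher in every epidermal library than in any subcutaneous one. Gata3, Bhlhe40, Il2ra, Tnfsf11, Klf2, S1pr1 and Nfkbia are lower in every epidermal library than in any subcutaneous one.

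Type 2 genes were mostly lower in epidermal ILCs, but not all of them. Of 28 tested, 3 were higher, 17 lower and 8 not called (median -2.59), and without subcutaneous replicate 2 the counts were 4 higher and 16 lower. Il2ra, the high-affinity IL-2 receptor subunit CD25, had 97.4, 84.7 and 80.96 CPM in epidermal libraries, against 1082, 904 and 808 CPM in subcutaneous libraries (log2 fold change -3.41 ± 0.18, adjusted p = 3.74e-06). Csf2, which encodes GM-CSF, had 51.9, 49.2 and 55.4 CPM in epidermal libraries, against 826, 948 and 1139 CPM in subcutaneous libraries (log2 fold change -4.22 ± 0.35, adjusted p = 2.58e-05). The groups were far apart for both. Areg, which encodes the epidermal growth factor family ligand amphiregulin, had 92.1, 43.1 and 33.05 CPM in epidermal libraries, against 723, 574 and 736 CPM in subcutaneous libraries (log2 fold change -3.59 ± 0.36, adjusted p = 8.48e-05). Pdcd1, which encodes the inhibitory receptor PD-1, had 24.7, 5.36 and 15.4 CPM in epidermal libraries, against 424, 359 and 365 CPM in subcutaneous libraries (log2 fold change -4.65 ± 0.46, adjusted p = 7.58e-05). Areg and Pdcd1 were lower in the epidermal libraries without overlap. Areg is also on the list of simple and glandular epithelial genes below, and which cells carried it was not tested.

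The type 2 cytokine genes did not move together. Il13 had 44.3, 46.04 and 37.3 CPM in epidermal libraries, against 27.8, 40.1 and 29.3 CPM in subcutaneous libraries and did not pass the test (log2 fold change 0.39 ± 0.30, adjusted p = 0.42), while Il5 was lower (log2 fold change -4.86 ± 0.31, adjusted p = 7.54e-06). Per transcript length, Il13 had 70.3, 56.1 and 49.1 TPM in epidermal libraries, against 38.05, 47.1 and 33.6 TPM in subcutaneous libraries, and Il5 had 165, 58.1 and 76.3 TPM in epidermal libraries, against 2814, 2696 and 1995 TPM in subcutaneous libraries. On this TPM scale Il5 lay above Il13 in all 6 libraries, by the narrowest margin in epidermal replicate 2. Il4 had 5.53, 2.44 and 3.47 CPM in epidermal libraries, against 5.62, 2.71 and 1.43 CPM in subcutaneous libraries (adjusted p = 0.871). The 3 members that were higher all encode receptors. Icos, a costimulatory receptor of type 2 ILCs, had 1546, 1188 and 1144 CPM in epidermal libraries, against 639.9, 834 and 694 CPM in subcutaneous libraries (log2 fold change 0.84 ± 0.18, adjusted p = 0.00895). Il17rb, a subunit of the IL-25 receptor, had 150.4, 74.2 and 90.5 CPM in epidermal libraries, against 15.6, 18.8 and 19.4 CPM in subcutaneous libraries (log2 fold change 2.55 ± 0.38, adjusted p = 0.000952). Ptgdr2, which encodes the prostaglandin D2 receptor CRTH2, had 21.5, 19.99 and 14.7 CPM in epidermal libraries, against 0, 1.53 and 0.0793 CPM in subcutaneous libraries (log2 fold change 5.09 ± 1.03, adjusted p = 0.00606). Ptgdr2 was at or near 0 in the subcutaneous libraries, while dermal libraries had 18.5 and 19.01 CPM in dermal CCR6+ libraries and 23.3 and 23.8 CPM in dermal Sca1+ libraries.

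Receptors for alarm signals and nerve-derived signals split between the layers. Of 10 alarmin receptor genes, 3 were higher, 1 lower and 6 not called. Besides Il17rb, the higher ones were Il18r1, which encodes the IL-18 receptor (log2 fold change 3.79, adjusted p = 0.000187), and Il1r2, a decoy receptor that binds IL-1 without signalling. Il1r2 (chromosome 1, 40074079 to 40125231) had 352, 305 and 335 CPM in epidermal libraries, against 25.5, 35.4 and 19.03 CPM in subcutaneous libraries (log2 fold change 3.63 ± 0.35, adjusted p = 5.98e-05). The lower one was Il1rl1, which encodes the IL-33 receptor ST2, with 3.47, 0 and 0 CPM in epidermal libraries, against 900.0, 819 and 897 CPM in subcutaneous libraries (log2 fold change -9.51 ± 1.19, adjusted p = 0.000315). Crlf2, the TSLP receptor gene, had 23.3, 17.7 and 21.4 CPM in epidermal libraries, against 26.6, 29.00 and 35.5 CPM in subcutaneous libraries and did not pass the test (adjusted p = 0.173). Of 11 neuropeptide and adrenergic receptor genes, 1 was higher, 5 lower and 5 not called, and the higher call was lost when any 1 library other than subcutaneous replicate 1 was left out. Ramp3, a coreceptor for calcitonin family peptides, had 5.04, 6.41 and 2.77 CPM in epidermal libraries, against 249, 235 and 182 CPM in subcutaneous libraries (log2 fold change -5.56 ± 0.32, adjusted p = 4.22e-06). Calcrl, the receptor that pairs with RAMP proteins, had 32.4, 21.9 and 32.6 CPM in epidermal libraries, against 65.3, 90.1 and 80.5 CPM in subcutaneous libraries (log2 fold change -1.44 ± 0.28, adjusted p = 0.00436). Adora2a, an adenosine receptor gene, had 22.2, 13.8 and 8.87 CPM in epidermal libraries, against 203, 134 and 196 CPM in subcutaneous libraries (log2 fold change -3.57 ± 0.36, adjusted p = 9.11e-05). These 3 receptor genes were lower in every epidermal library than in any subcutaneous one. Nmur1, the neuromedin U receptor gene of type 2 ILCs, had 1.52, 0.209 and 3.37 CPM in epidermal libraries, against 22.1, 32.7 and 46.5 CPM in subcutaneous libraries (log2 fold change -4.29 ± 0.85, adjusted p = 0.00686), and its adjusted p was 0.0595 when epidermal replicate 1 and subcutaneous replicate 2 were both left out.

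The type 3 list moved in both directions. Of 25 tested, 5 were higher, 8 lower and 12 not called. The higher members included Lta, Ltb, Ccr6 and Il22ra2. Lta, which encodes lymphotoxin alpha, had 135, 142 and 135 CPM in epidermal libraries, against 0.870, 9.18 and 8.17 CPM in subcutaneous libraries (log2 fold change 4.50 ± 0.65, adjusted p = 0.000788). Ltb, which encodes its membrane partner lymphotoxin beta, had 505, 639 and 652 CPM in epidermal libraries, against 205, 271 and 404 CPM in subcutaneous libraries (log2 fold change 1.03 ± 0.25, adjusted p = 0.0157). The call for Ltb was lost without epidermal replicate 2 (adjusted p = 0.0515), epidermal replicate 3 (0.0595) or subcutaneous replicate 2 (0.0588), and on the pan-lymphocyte scale (0.0628). Lta and Ltb were nonetheless above every subcutaneous value in all 3 epidermal libraries. Among the lower members, Tnfsf11, which encodes RANKL, had 30.7, 20.8 and 24.3 CPM in epidermal libraries, against 131, 118 and 107 CPM in subcutaneous libraries (log2 fold change -2.23 ± 0.21, adjusted p = 5.98e-05). Nrp1, which encodes neuropilin-1, had 28.3, 22.8 and 21.8 CPM in epidermal libraries, against 131, 186 and 143 CPM in subcutaneous libraries (log2 fold change -2.66 ± 0.26, adjusted p = 6.69e-05). Tmem176b, a membrane protein gene, had 344, 374 and 376 CPM in epidermal libraries, against 1146, 1511 and 1771 CPM in subcutaneous libraries (log2 fold change -2.02 ± 0.22, adjusted p = 0.000129). These 3 did not overlap between the groups.

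Il22 and Il17a were low except for Il22 in subcutaneous replicate 2. Il22, whose product acts on keratinocytes, had 13.9, 5.15 and 6.04 CPM in epidermal libraries, against 0.736, 80.2 and 0.952 CPM in subcutaneous libraries and did not pass the test (adjusted p = 0.463), and without subcutaneous replicate 2 its log2 fold change turned to 3.30 (edgeR adjusted p = 0.041). Il17a had 5.26, 3.27 and 2.77 CPM in epidermal libraries, against 0, 2.99 and 0 CPM in subcutaneous libraries (adjusted p = 0.429). Leaving out subcutaneous replicate 2 moved the list to 9 higher and 6 lower of 24, and its median log2 fold change to 0.36 in place of -1.46. Leaving out epidermal replicate 1 as well gave 7 higher and 5 lower, with a median of -0.62, and leaving out epidermal replicate 3 alone gave 3 higher.

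TNF superfamily genes followed no single direction. Of 17 ligand genes, 3 were higher, 5 lower and 9 not called, and without subcutaneous replicate 2 the counts were 2 higher and 2 lower. The count of lower ligand genes was also 2 without epidermal replicate 3, and 3 without epidermal replicate 1, subcutaneous replicate 1 or subcutaneous replicate 3. Of 19 receptor genes, 4 were higher, 5 lower and 10 not called, with 1 higher on the pan-lymphocyte scale. Over all genes, 6.87% were called higher and 13.3% lower. Tnfrsf8, which encodes CD30, had 29.5, 24.7 and 36.7 CPM in epidermal libraries, against 0, 0 and 0 CPM in subcutaneous libraries. It was at least 424-fold higher in epidermal libraries, taking the floor as 3 counts over the 3 subcutaneous libraries (adjusted p = 0.000178). Tnfrsf9, which encodes 4-1BB, had 15.8, 17.4 and 15.1 CPM in epidermal libraries, against 175, 197 and 150.1 CPM in subcutaneous libraries (log2 fold change -3.43 ± 0.24, adjusted p = 1.04e-05). Tnfrsf18, which encodes GITR, had 251, 273 and 246 CPM in epidermal libraries, against 745, 691 and 1024 CPM in subcutaneous libraries (log2 fold change -1.68 ± 0.19, adjusted p = 0.000172). Among costimulatory and inhibitory receptors, 4 of 28 were higher and 9 lower. Cd96, an inhibitory receptor of lymphocytes, had 350.4, 275 and 329 CPM in epidermal libraries, against 59.3, 118 and 74.9 CPM in subcutaneous libraries (log2 fold change 1.92 ± 0.26, adjusted p = 0.000608). Slamf1, a homotypic adhesion receptor, had 55.9, 25.8 and 30.97 CPM in epidermal libraries, against 0, 0.487 and 0.159 CPM in subcutaneous libraries (log2 fold change 7.40 ± 0.74, adjusted p = 8.1e-05). Cd200r1, an inhibitory receptor of type 2 ILCs and myeloid cells, had 14.1, 10.03 and 16.3 CPM in epidermal libraries, against 179, 158 and 143 CPM in subcutaneous libraries (log2 fold change -3.57 ± 0.24, adjusted p = 8.18e-06). Cd28, a costimulatory receptor, had 12.2, 8.64 and 11.9 CPM in epidermal libraries, against 119.6, 128 and 75.9 CPM in subcutaneous libraries (log2 fold change -3.30 ± 0.27, adjusted p = 2.41e-05). The groups were separate for all 4, with Cd96 and Slamf1 higher in the epidermal libraries and Cd200r1 and Cd28 lower.

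Values of cytotoxic and NK cell genes turned on subcutaneous replicate 2. The summed level of the type 1 ILC and NK cell list was 1130.0, 1049 and 1061 CPM in epidermal libraries, against 293, 2249 and 351 CPM in subcutaneous libraries. The 3 epidermal libraries thus lay between subcutaneous replicate 2 and the other subcutaneous libraries. Of 22 tested, 1 was higher, 7 lower and 14 not called, and without subcutaneous replicate 2 there were 4 higher and 4 lower, with a median log2 fold change of 0.51 in place of -1.70. Without epidermal replicate 1 or epidermal replicate 2 there were also 4 lower, and without subcutaneous replicate 1 there were 0 higher. Klrk1, which encodes the activating receptor NKG2D, had 99.03, 107 and 112 CPM in epidermal libraries, against 5.89, 137 and 2.78 CPM in subcutaneous libraries (adjusted p = 0.511, and 6.88e-05 without that library). Nkg7, a cytotoxic granule membrane gene, had 169, 155 and 167 CPM in epidermal libraries, against 28.05, 352 and 18.2 CPM in subcutaneous libraries (adjusted p = 0.859, and 0.000324 without it). Both were above subcutaneous replicates 1 and 3 in all 3 epidermal libraries. Gzma, which encodes granzyme A, had 0, 0 and 0 CPM in epidermal libraries, against 12.3, 199 and 2.70 CPM in subcutaneous libraries (adjusted p = 0.0263), and the adjusted p was 0.0638 without subcutaneous replicate 2 and between 0.0545 and 0.0637 when 1 epidermal library was left out. Ccl5, a chemokine gene of effector lymphocytes, was lower with and without that library (3.63, 2.79 and 5.10 CPM in epidermal libraries, against 34.01, 197 and 28.6 CPM in subcutaneous libraries, adjusted p = 0.00196 and 0.00395). Killer cell lectin-like receptor genes gave 3 lower and 0 higher of 15, and 1 lower and 3 higher without subcutaneous replicate 2. There was also 1 lower without any single epidermal library. Klrg1, an inhibitory receptor of mature ILCs and NK cells, was lower with every library left out in turn, with 0.434, 0.906 and 0.545 CPM in epidermal libraries, against 681, 734 and 1074 CPM in subcutaneous libraries (log2 fold change -10.38 ± 0.38, adjusted p = 2.8e-07), and it was not raised in subcutaneous replicate 2. The other 2 called receptors were Klra4, with 0, 0 and 0 CPM in epidermal libraries, against 0.402, 25.8 and 1.74 CPM in subcutaneous libraries, and Klra9, with 0, 0 and 0.0495 CPM in epidermal libraries, against 1.07, 26.4 and 0.714 CPM in subcutaneous libraries. Both are receptors of NK cells of the Ly49 family, and both were highest in subcutaneous replicate 2. Klra4 lost its call without any single epidermal library (adjusted p = 0.065 to 0.0769) and was not tested without subcutaneous replicate 2. Klra9 lost its call without any single epidermal library and without subcutaneous replicate 2 (adjusted p = 0.0835 to 0.168).

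T cell receptor genes were present in both layers. Of 15 tested, 1 was higher, 1 lower and 13 not called, against 20.2% of all genes called, and without subcutaneous replicate 2 there were 3 higher. The higher one was Trdv4, a variable segment of the delta chain (log2 fold change 1.23 ± 0.26, adjusted p = 0.0074). The lower one was Tcrg-C1, a constant region of the gamma chain (log2 fold change -2.45 ± 0.35, adjusted p = 0.000763). Tcrg-C1 had 9.43, 19.1 and 17.4 CPM in epidermal libraries, against 69.4, 101 and 80.2 CPM in subcutaneous libraries. Trbc2, the constant region of the beta chain, had 206, 278 and 273 CPM in epidermal libraries, against 183, 241 and 324 CPM in subcutaneous libraries (adjusted p = 0.971). Cd3g, a CD3 chain gene, had 233, 341 and 269 CPM in epidermal libraries, against 92.6, 172 and 194 CPM in subcutaneous libraries (adjusted p = 0.0622). Trac, the constant region of the alpha chain, had 22.9, 35.9 and 33.4 CPM in epidermal libraries, against 12.2, 25.7 and 2.54 CPM in subcutaneous libraries (adjusted p = 0.239), and Trdc, that of the delta chain, had 31.9, 18.8 and 34.2 CPM in epidermal libraries, against 2.08, 38.6 and 1.51 CPM in subcutaneous libraries. Trdc did not pass the test (adjusted p = 0.548), and it was higher in epidermal libraries without subcutaneous replicate 2 (adjusted p = 0.00252). Any share of T cells in these libraries was not tested.

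Genes of tissue retention were called in both directions, and genes of tissue exit were called mostly lower. Of 21 retention genes, 6 were higher, 5 lower and 10 not called, and of 18 egress genes, 1 was higher, 10 lower and 7 not called. Jaml, a junctional adhesion molecule that binds CAR on epithelial cells (chromosome 9, 45079183 to 45108534), had 879, 583 and 604 CPM in epidermal libraries, against 4.95, 12.7 and 4.04 CPM in subcutaneous libraries (log2 fold change 6.57 ± 0.48, adjusted p = 1.27e-05). Itgae, the integrin αE chain (CD103) that binds E-cadherin, had 2834, 917 and 1081 CPM in epidermal libraries, against 1.67, 34.6 and 0.476 CPM in subcutaneous libraries (log2 fold change 7.04 ± 1.31, adjusted p = 0.00371). Cd44, the hyaluronan receptor gene, had 1567, 1384 and 1406 CPM in epidermal libraries, against 474, 614 and 462 CPM in subcutaneous libraries (log2 fold change 1.49 ± 0.17, adjusted p = 0.000174). All 3 were higher in every epidermal library, and epidermal replicate 1 was the highest of them for each. Itgb7, the partner chain of αE, moved the other way, with 1195, 821 and 1083 CPM in epidermal libraries, against 1944, 1846 and 2544 CPM in subcutaneous libraries (log2 fold change -1.03 ± 0.20, adjusted p = 0.00479). Cd69, a widely used residency marker, had 604, 444 and 403 CPM in epidermal libraries, against 544, 461 and 589 CPM in subcutaneous libraries and did not pass the test (adjusted p = 0.745). Cxcr6, a chemokine receptor of resident lymphocytes, had 2200.1, 2262 and 3069.9 CPM in epidermal libraries, against 1927, 2697 and 2028 CPM in subcutaneous libraries (adjusted p = 0.578). The retention list's median log2 fold change was 0.18, and -0.14 when scaled by pan-lymphocyte genes.

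Most called exit genes were lower in the epidermal libraries. Klf2 (chromosome 8, 72319033 to 72321656), which encodes a factor that drives S1pr1, had 11.5, 15.7 and 11.00 CPM in epidermal libraries, against 318, 281 and 252 CPM in subcutaneous libraries (log2 fold change -4.48 ± 0.25, adjusted p = 4.22e-06). S1pr1, the sphingosine 1-phosphate receptor that guides lymphocytes out of tissue, had 6.18, 3.76 and 8.42 CPM in epidermal libraries, against 66.9, 161 and 75.8 CPM in subcutaneous libraries (log2 fold change -4.04 ± 0.42, adjusted p = 0.000108). Itga4, the integrin α4 chain, had 3.90, 5.02 and 1.44 CPM in epidermal libraries, against 178, 194 and 159.5 CPM in subcutaneous libraries (log2 fold change -5.69 ± 0.43, adjusted p = 1.44e-05). All 3 were lower in epidermal libraries without overlap. Without epidermal replicate 1 and subcutaneous replicate 2, 8 egress genes were lower and 2 higher. The dermal libraries had intermediate Klf2 levels, 74.8 and 55.3 CPM in dermal CCR6+ libraries and 93.7 and 69.4 CPM in dermal Sca1+ libraries.

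Chemokine receptor genes gave 4 higher and 6 lower of 20. Cxcr4, the receptor for CXCL12, had 174, 142 and 179 CPM in epidermal libraries, against 50.9, 81.3 and 46.8 CPM in subcutaneous libraries (log2 fold change 1.47 ± 0.28, adjusted p = 0.00431). Ccr2, the receptor for monocyte chemoattractants, had 17.7, 1.25 and 20.5 CPM in epidermal libraries, against 743, 916 and 1082 CPM in subcutaneous libraries (log2 fold change -6.11 ± 0.79, adjusted p = 0.000389). Ccr4, a receptor for skin chemokines, had 60.2, 52.8 and 57.4 CPM in epidermal libraries, against 168, 145 and 159 CPM in subcutaneous libraries (log2 fold change -1.47 ± 0.23, adjusted p = 0.0014). Ccr8, a receptor of skin-resident lymphocytes, had 950.5, 1088 and 1131 CPM in epidermal libraries, against 1221, 1173 and 1539 CPM in subcutaneous libraries and did not pass the test (adjusted p = 0.215). Of these 4, Cxcr4 was higher in the epidermal libraries, Ccr2 and Ccr4 were lower, and all 6 libraries had high Ccr8 values. Ccr1, a receptor typical of myeloid cells, was called lower with 1 count in all over the epidermal libraries and 37.1, 95.6 and 48.5 CPM in subcutaneous libraries, highest in replicate 2.

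Many receptor genes for growth cytokines and interferons were lower in the epidermal libraries. Of 21 tested, 2 were higher, 11 lower and 8 not called, and without subcutaneous replicate 2 there were 2 higher and 9 lower. Il4ra, the shared receptor chain for IL-4 and IL-13, had 101, 44.7 and 57.7 CPM in epidermal libraries, against 1055, 555 and 572 CPM in subcutaneous libraries (log2 fold change -3.42 ± 0.36, adjusted p = 0.000102). Il6st, which encodes gp130, had 9.65, 18.5 and 15.2 CPM in epidermal libraries, against 146, 189.9 and 205 CPM in subcutaneous libraries (log2 fold change -3.64 ± 0.54, adjusted p = 0.000989). Ifngr1, the ligand-binding chain of the interferon gamma receptor, had 187, 164 and 240.1 CPM in epidermal libraries, against 836, 1029 and 675 CPM in subcutaneous libraries (log2 fold change -2.10 ± 0.22, adjusted p = 9.86e-05). Ifnar1, a chain of the type I interferon receptor, had 84.9, 107 and 53.3 CPM in epidermal libraries, against 491, 347 and 349 CPM in subcutaneous libraries (log2 fold change -2.27 ± 0.26, adjusted p = 0.000187). The partner chains were lower as well, Ifngr2 with 49.00, 41.4 and 39.6 CPM in epidermal libraries, against 175, 172 and 174 CPM in subcutaneous libraries (adjusted p = 3.79e-05) and Ifnar2 with a log2 fold change of -1.38 (adjusted p = 0.00524). Tgfbr1, a TGF-β receptor chain, was higher, with 238, 137 and 196 CPM in epidermal libraries, against 48.6, 62.2 and 22.3 CPM in subcutaneous libraries (log2 fold change 2.10 ± 0.37, adjusted p = 0.00284). The groups did not overlap for any of these 7 genes.

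Interferon response genes were lower in epidermal ILCs and none was higher. Of 45 tested, 0 were higher, 31 lower and 14 not called (median -2.35), against 13.3% of all genes called lower. Cxcl10, an interferon-induced chemokine gene, had 19.2, 19.7 and 15.1 CPM in epidermal libraries, against 160.0, 224 and 90.6 CPM in subcutaneous libraries (log2 fold change -3.13 ± 0.34, adjusted p = 0.000133). Irf7, a factor that amplifies interferon responses, had 20.5, 10.2 and 18.4 CPM in epidermal libraries, against 99.7, 127 and 109 CPM in subcutaneous libraries (log2 fold change -2.77 ± 0.33, adjusted p = 0.000227). Irf1, an interferon gamma induced factor, had 164, 74.95 and 76.6 CPM in epidermal libraries, against 474, 359 and 424 CPM in subcutaneous libraries (log2 fold change -1.99 ± 0.30, adjusted p = 0.00108). Gbp7, a guanylate-binding protein gene of cell-autonomous defence, had 38.5, 39.01 and 36.1 CPM in epidermal libraries, against 127, 132 and 128 CPM in subcutaneous libraries (log2 fold change -1.77 ± 0.23, adjusted p = 0.000411). The groups were separate for all 4.

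The interferon calls moved with subcutaneous replicate 2. Without that library 20 were lower, and without epidermal replicate 1 as well 17 were, with 0 higher in both cases. Of the 31 called genes, 23 were more than 0.5 log2 units higher in subcutaneous replicate 2 than in the mean of the other subcutaneous libraries, and 0 were as far below. All 21 called macrophage genes were more than 0.5 log2 units higher in it too. Gbp7, Irf7 and Irf1 were at like levels in the 3 subcutaneous libraries, while Ifi27l2a, an interferon-induced mitochondrial protein gene, had 12.9, 15.6 and 15.4 CPM in epidermal libraries, against 95.9, 314 and 214 CPM in subcutaneous libraries (log2 fold change -3.83 ± 0.39, adjusted p = 9.68e-05). Oasl1, an antiviral gene, had 0, 0 and 0 CPM in epidermal libraries, against 15.9, 49.6 and 31.00 CPM in subcutaneous libraries, at least 568-fold lower against a floor of 3 counts over the epidermal libraries (adjusted p = 0.000389). The part of macrophage RNA in these differences was not tested.

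Promoters of 3 interferon genes called lower are shown because they hold the letters GAAANNGAA, a core of the element that interferon-activated factors bind. They are RefSeq sequences of GRCm38.p6, 250 bases before to 50 after the gene start, 5′ to 3′ along the gene, with the motif in capitals. Cxcl10 lies at chr5:92348840-92349139 on the minus strand, Irgm1 at chr11:48871371-48871670 on the minus strand and Bst2 at chr8:71537423-71537722 on the minus strand.
Cxcl10: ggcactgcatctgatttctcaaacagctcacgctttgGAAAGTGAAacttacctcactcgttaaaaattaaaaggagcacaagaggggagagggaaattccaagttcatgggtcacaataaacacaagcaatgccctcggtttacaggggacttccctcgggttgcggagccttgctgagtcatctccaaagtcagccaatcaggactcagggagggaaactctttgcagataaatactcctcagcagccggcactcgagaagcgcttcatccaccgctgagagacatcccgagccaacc
Irgm1: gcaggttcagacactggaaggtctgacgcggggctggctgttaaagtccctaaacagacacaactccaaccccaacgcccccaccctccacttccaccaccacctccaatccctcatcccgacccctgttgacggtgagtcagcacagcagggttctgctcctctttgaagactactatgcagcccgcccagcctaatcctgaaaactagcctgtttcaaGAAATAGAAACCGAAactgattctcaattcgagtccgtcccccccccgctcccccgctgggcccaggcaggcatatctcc
Bst2: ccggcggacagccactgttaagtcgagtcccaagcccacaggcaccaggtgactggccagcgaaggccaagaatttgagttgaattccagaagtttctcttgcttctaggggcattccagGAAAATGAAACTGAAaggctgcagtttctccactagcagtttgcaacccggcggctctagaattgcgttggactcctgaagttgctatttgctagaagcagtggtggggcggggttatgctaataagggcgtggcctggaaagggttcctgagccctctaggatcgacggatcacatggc
The motif was searched on both strands, and copies may overlap, as the 2 copies in Irgm1 and in Bst2 do. It starts 213 bases before the gene start in Cxcl10, 30 in Irgm1 and 130 in Bst2. It was in 22 of the 35 listed interferon genes with a promoter entry, 18 of 26 called lower and 4 of 9 not called, and in 9.76% of 27025 genes with an entry. Irgm1, an immunity-related GTPase gene, had 32.6, 60.9 and 36.4 CPM in epidermal libraries, against 84.4, 181 and 128 CPM in subcutaneous libraries (log2 fold change -1.60 ± 0.32, adjusted p = 0.00525), and Bst2, which encodes tetherin, had 26.8, 26.5 and 28.7 CPM in epidermal libraries, against 90.8, 154 and 142 CPM in subcutaneous libraries (log2 fold change -2.24 ± 0.23, adjusted p = 0.0001). The call for Irgm1 was lost, with an adjusted p of 0.0503, when epidermal replicate 1 and subcutaneous replicate 2 were both left out. A match describes these letters only.

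Targets of NF-kB were also lower in the epidermal libraries, as were early response genes. Of 24 NF-kB targets, 0 were higher, 17 lower and 7 not called (median -1.90), and without subcutaneous replicate 2 there were 1 higher and 16 lower. Nfkbia, the feedback inhibitor IκBα, had 2062, 1159 and 891 CPM in epidermal libraries, against 3883, 2957 and 4063 CPM in subcutaneous libraries (log2 fold change -1.41 ± 0.28, adjusted p = 0.00566). Traf1, an adaptor of TNF receptors, had 150.2, 135 and 142 CPM in epidermal libraries, against 858, 815 and 921 CPM in subcutaneous libraries (log2 fold change -2.60 ± 0.22, adjusted p = 3.37e-05). Rel, which encodes the NF-kB subunit c-Rel, had 153, 127 and 74.2 CPM in epidermal libraries, against 594, 566 and 425 CPM in subcutaneous libraries (log2 fold change -2.16 ± 0.29, adjusted p = 0.000494). Birc3, an inhibitor of apoptosis, had 100.2, 89.4 and 69.7 CPM in epidermal libraries, against 343, 336 and 285 CPM in subcutaneous libraries (log2 fold change -1.89 ± 0.25, adjusted p = 0.000414). These 4 had substantial levels in both layers and did not overlap, and subcutaneous replicate 2 was not the highest library for any of them. Tnfaip3, which encodes the deubiquitinase A20, had 3826, 781 and 695 CPM in epidermal libraries, against 8049, 3283 and 3943 CPM in subcutaneous libraries and did not pass the test (adjusted p = 0.103), with replicate 1 the highest in both groups.

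Of 26 immediate early genes, 1 was higher, 18 lower and 7 not called (median -1.55), and 23 were lower without epidermal replicate 1, while 11 were lower without epidermal replicate 2, epidermal replicate 3 or subcutaneous replicate 1. Nr4a2, an orphan nuclear receptor gene, had 8.998, 9.33 and 7.18 CPM in epidermal libraries, against 251, 206 and 181 CPM in subcutaneous libraries (log2 fold change -4.65 ± 0.27, adjusted p = 4.22e-06). Atf3, a stress-induced factor, had 189, 126 and 89.2 CPM in epidermal libraries, against 1544, 1057 and 1201 CPM in subcutaneous libraries (log2 fold change -3.23 ± 0.28, adjusted p = 3.87e-05). Klf6, a Krüppel-like factor, had 999, 814 and 771 CPM in epidermal libraries, against 2742, 2265 and 2661 CPM in subcutaneous libraries (log2 fold change -1.57 ± 0.18, adjusted p = 0.000212). All were separate between the groups. Dusp2, a phosphatase induced by MAP kinase signals, was the single higher member, with 172, 119.6 and 83.9 CPM in epidermal libraries, against 24.4, 41.7 and 15.4 CPM in subcutaneous libraries (log2 fold change 2.20 ± 0.39, adjusted p = 0.00263). Fos, which is induced by handling of cells, had 2788, 1873 and 1523 CPM in epidermal libraries, against 3553, 2424 and 2932 CPM in subcutaneous libraries and did not pass the test (adjusted p = 0.139). Of 14 heat shock genes, 1 was higher, 7 lower and 6 not called, with 11 lower on the pan-lymphocyte scale, and Dnaja1, a co-chaperone, had 312, 219 and 265 CPM in epidermal libraries, against 1097, 1140.4 and 1411 CPM in subcutaneous libraries (log2 fold change -2.20 ± 0.19, adjusted p = 3.15e-05). Immediate early and heat shock genes also respond to cell isolation, and how each layer was handled cannot be told apart from the layer.

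Feedback regulators of cytokine and MAP kinase signalling gave 2 higher and 8 lower of 19, with 1 higher when any 1 library other than epidermal replicate 2 was left out. Socs2, a target of STAT5, had 13.6, 18.4 and 9.46 CPM in epidermal libraries, against 254, 223 and 270.1 CPM in subcutaneous libraries (log2 fold change -4.18 ± 0.27, adjusted p = 7.4e-06). Socs3, a target of STAT3, had 19.2, 18.3 and 21.4 CPM in epidermal libraries, against 218, 249 and 183 CPM in subcutaneous libraries (log2 fold change -3.46 ± 0.32, adjusted p = 5.35e-05). Dusp5, an ERK phosphatase, had 425, 152 and 197 CPM in epidermal libraries, against 2094, 1388 and 1708 CPM in subcutaneous libraries (log2 fold change -2.75 ± 0.36, adjusted p = 0.000454). Socs1, an inhibitor of JAK kinases, had 74.7, 60.3 and 64.2 CPM in epidermal libraries, against 61.9, 60.9 and 63.3 CPM in subcutaneous libraries and did not pass the test (adjusted p = 0.772). The first 3 were lower in the epidermal libraries, and the Socs1 values of the groups overlapped.

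Genes of cholesterol synthesis were higher in epidermal ILCs and none was lower. Of 25 tested, 13 were higher, 0 lower and 12 not called (median 1.26), against 6.87% of all genes called higher. Fdps, which encodes farnesyl diphosphate synthase (chromosome 3, 89093588 to 89101959), had 213, 344 and 347 CPM in epidermal libraries, against 28.05, 44.5 and 55.7 CPM in subcutaneous libraries (log2 fold change 2.82 ± 0.31, adjusted p = 0.000137). Msmo1, a sterol C4 demethylation enzyme, had 111, 206 and 218 CPM in epidermal libraries, against 27.5, 34.6 and 35.9 CPM in subcutaneous libraries (log2 fold change 2.45 ± 0.31, adjusted p = 0.000349). Mvd, the mevalonate diphosphate decarboxylase, had 57.3, 58.9 and 55.3 CPM in epidermal libraries, against 9.51, 10.02 and 10.9 CPM in subcutaneous libraries (log2 fold change 2.50 ± 0.28, adjusted p = 0.000156). Hmgcs1, the synthase that supplies the pathway, had 126, 185 and 185 CPM in epidermal libraries, against 50.5, 49.1 and 50.03 CPM in subcutaneous libraries (log2 fold change 1.73 ± 0.24, adjusted p = 0.000672). Every epidermal library was above every subcutaneous one for these 4. Epidermal replicate 1, the library low in keratinocyte genes, had a median log2 ratio of -0.35 to the other epidermal libraries over the 13 genes. Of the 13, 0 lay above 0.5 and 6 below -0.5. The same median was -1.51 for differentiated keratinocyte genes, -0.22 over all genes called higher and 0.04 over 91 programme genes called higher. Without that library 13 were higher, but the epidermal libraries kept hold more keratinocyte transcripts, so this count does not bear on keratinocyte RNA. The part of keratinocyte RNA was not tested. With the pan-lymphocyte scale 12 were higher and 1 lower.

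The promoter of Hmgcs1 is shown because it alone, among the 9 called cholesterol genes with an entry, holds TCACNCCAC, a form of the sterol regulatory element. It lies at chr13:119690101-119690400 on the plus strand (RefSeq, GRCm38.p6), with the motif in capitals.
Hmgcs1: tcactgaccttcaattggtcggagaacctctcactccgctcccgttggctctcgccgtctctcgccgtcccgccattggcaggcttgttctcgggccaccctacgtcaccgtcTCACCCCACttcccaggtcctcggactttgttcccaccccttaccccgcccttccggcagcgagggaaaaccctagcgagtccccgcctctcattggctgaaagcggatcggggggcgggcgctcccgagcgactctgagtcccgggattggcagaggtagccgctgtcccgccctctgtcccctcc
The motif starts 137 bases before the gene start. It was in 1 of 17 listed genes with an entry and in 1.44% of all genes with one, on either strand.

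Some proliferation genes were higher too. Of 36 cell cycle genes, 11 were higher, 0 lower and 25 not called (median 1.31). Nusap1, a spindle protein gene, had 38.00, 30.6 and 32.2 CPM in epidermal libraries, against 7.97, 13.8 and 4.36 CPM in subcutaneous libraries (log2 fold change 1.95 ± 0.40, adjusted p = 0.00686). Ube2c, a ubiquitin-conjugating enzyme of mitotic exit, had 31.9, 58.4 and 34.2 CPM in epidermal libraries, against 6.90, 14.8 and 6.18 CPM in subcutaneous libraries (log2 fold change 2.16 ± 0.42, adjusted p = 0.00498). Both were separate between the groups. The count of higher genes was 7 without epidermal replicate 1 or 2, 5 without epidermal replicate 3, 4, 13 and 3 without subcutaneous replicate 1, 2 and 3 in turn, and it was 6, with 1 lower, on the pan-lymphocyte scale.

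Energy metabolism was split. Of 26 glycolysis and hypoxia genes, 6 were higher, 5 lower and 15 not called. Tpi1, a glycolytic isomerase, had 453, 422 and 498 CPM in epidermal libraries, against 200.4, 201 and 241 CPM in subcutaneous libraries (log2 fold change 1.10 ± 0.16, adjusted p = 0.000993). Egln3, a hypoxia-induced prolyl hydroxylase, had 68.03, 80.5 and 53.3 CPM in epidermal libraries, against 8.23, 14.5 and 9.28 CPM in subcutaneous libraries (log2 fold change 2.66 ± 0.27, adjusted p = 9.79e-05). Slc2a3, the glucose transporter GLUT3, moved the other way, with 19.4, 11.2 and 13.5 CPM in epidermal libraries, against 103, 78.04 and 93.7 CPM in subcutaneous libraries (log2 fold change -2.64 ± 0.31, adjusted p = 0.000191), and so did Hif1a (log2 fold change -1.01 ± 0.23, adjusted p = 0.0106). On the pan-lymphocyte scale the counts were 4 higher and 9 lower, with a median of -0.07 in place of 0.26.

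Genes of lipid handling and arginine use, both known from type 2 ILCs, were more often lower than higher in the epidermal libraries. Of 27 fatty acid and PPAR genes, 4 were higher, 10 lower and 13 not called. Pparg, which encodes the nuclear receptor PPARγ, had 3.20, 1.46 and 3.02 CPM in epidermal libraries, against 72.2, 69.1 and 99.9 CPM in subcutaneous libraries (log2 fold change -4.96 ± 0.39, adjusted p = 1.87e-05). Dgat1, which makes triglycerides, had 47.05, 37.7 and 29.6 CPM in epidermal libraries, against 422, 295 and 174 CPM in subcutaneous libraries (log2 fold change -2.96 ± 0.32, adjusted p = 0.000118). Plin2, a lipid droplet coat gene, had 18.2, 25.1 and 33.5 CPM in epidermal libraries, against 291, 379.8 and 281 CPM in subcutaneous libraries (log2 fold change -3.63 ± 0.26, adjusted p = 1.12e-05). All 3 were lower without overlap. Fabp5, an epidermal-type fatty acid binding protein gene, was higher, with 91.98, 207 and 183 CPM in epidermal libraries, against 46.3, 62.9 and 57.3 CPM in subcutaneous libraries (log2 fold change 1.53 ± 0.28, adjusted p = 0.00372), and epidermal replicate 1 was the lowest of the 3. Of 15 arginine and polyamine genes, 2 were higher, 8 lower and 5 not called, with 1 higher without epidermal replicate 1, epidermal replicate 3, subcutaneous replicate 2 or subcutaneous replicate 3. Odc1, which makes putrescine, had 564, 272 and 292 CPM in epidermal libraries, against 2513, 2239 and 1581 CPM in subcutaneous libraries (log2 fold change -2.49 ± 0.30, adjusted p = 0.000229). Slc7a1, an arginine transporter, had 37.9, 55.4 and 33.99 CPM in epidermal libraries, against 140.3, 123 and 124 CPM in subcutaneous libraries (log2 fold change -1.60 ± 0.22, adjusted p = 0.000548). Both were present in all 6 libraries and lower in the epidermal ones.

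Genes of prostaglandins and leukotrienes gave 3 higher and 7 lower of 20. Ptger4, the prostaglandin E2 receptor EP4, had 450.4, 274 and 295 CPM in epidermal libraries, against 93.5, 65.03 and 54.00 CPM in subcutaneous libraries (log2 fold change 2.26 ± 0.26, adjusted p = 0.000205). Ltb4r1, a leukotriene B4 receptor, had 51.1, 64.1 and 68.4 CPM in epidermal libraries, against 244, 236 and 364 CPM in subcutaneous libraries (log2 fold change -2.20 ± 0.22, adjusted p = 9.06e-05). Alox5, the 5-lipoxygenase that starts leukotriene synthesis, had 0, 0 and 0.0495 CPM in epidermal libraries, against 475, 507 and 803 CPM in subcutaneous libraries. That was 1 count over the epidermal libraries, and the ratio of subcutaneous to epidermal CPM was 30971, 95% interval 5558 to 1223340.0, from counting error only. Dermal libraries had 2.63 and 0 CPM in dermal CCR6+ libraries and 13.2 and 24.1 CPM in dermal Sca1+ libraries. Which cells carried Alox5 was not tested.

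TGF-β, aryl hydrocarbon receptor and growth factor genes completed the lists. Of 20 TGF-β genes, 3 were higher, 7 lower and 10 not called, among them Smad7, the inhibitory SMAD, with 148, 49.9 and 61.3 CPM in epidermal libraries, against 23.7, 17.7 and 8.80 CPM in subcutaneous libraries (log2 fold change 2.37 ± 0.47, adjusted p = 0.00525). Of 9 aryl hydrocarbon receptor genes, 2 were higher, 1 lower and 6 not called, with 4 higher without subcutaneous replicate 2, and the lower call was lost without any 1 library other than epidermal replicate 1. Ahr, the receptor gene itself, had 60.6, 50.01 and 59.6 CPM in epidermal libraries, against 24.2, 41.4 and 15.6 CPM in subcutaneous libraries and did not pass the test (adjusted p = 0.0911). Of 27 growth factor and tissue-directed cytokine genes, 4 were higher, 14 lower and 9 not called (median -2.17). Pdgfb, a mitogen for mesenchymal cells, was higher, with 85.9, 58.5 and 47.02 CPM in epidermal libraries, against 15.2, 8.76 and 7.93 CPM in subcutaneous libraries (log2 fold change 2.58 ± 0.36, adjusted p = 0.000595). Osm, which encodes oncostatin M, was lower, with 6.23, 8.50 and 4.86 CPM in epidermal libraries, against 25.9, 48.2 and 33.1 CPM in subcutaneous libraries (log2 fold change -2.45 ± 0.45, adjusted p = 0.00352). Tgfb1, which encodes TGF-β1, had 274, 181 and 215 CPM in epidermal libraries, against 409.8, 287 and 355 CPM in subcutaneous libraries and did not pass the test (adjusted p = 0.0512).

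Genes on the lists of neighbouring cells had counts in both groups, and the lists that took the larger share differed between them. Which cells these transcripts came from was not tested. The 61 keratinocyte and hair follicle genes took 0.623%, 1.73% and 1.52% of the counts in epidermal libraries, against 0.0828%, 0.0580% and 0.0503% in subcutaneous libraries. The other 220 genes on neighbouring cell lists took 0.408%, 0.480% and 0.546% in epidermal libraries, against 3.09%, 3.59% and 2.58% in subcutaneous libraries. Keratinocyte and hair follicle genes thus took more of every epidermal library and the other lists more of every subcutaneous one.

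Of 24 differentiated keratinocyte genes, 20 were higher, 0 lower and 4 not called (median 9.43, or 8.55 with genes at 0 in the subcutaneous libraries set to the floor). Their summed level was 3046, 10095 and 7612 CPM in epidermal libraries, against 50.5, 29.1 and 15.5 CPM in subcutaneous libraries, and 561 and 613 CPM in dermal CCR6+ libraries and 482 and 442 CPM in dermal Sca1+ libraries. Krt10, a suprabasal keratin gene, had 865, 1166 and 983 CPM in epidermal libraries, against 2.81, 2.50 and 3.41 CPM in subcutaneous libraries (log2 fold change 8.43 ± 0.25, adjusted p = 1.13e-07). Krtdap, a keratinocyte differentiation gene, had 255, 1983 and 1712 CPM in epidermal libraries, against 0.134, 0.556 and 1.11 CPM in subcutaneous libraries (log2 fold change 11.13 ± 0.96, adjusted p = 3.53e-05). Of 18 basal keratinocyte genes, 12 were higher, 1 lower and 5 not called. Krt15, a keratin gene of basal and follicle stem cells, had 400.4, 866 and 1162 CPM in epidermal libraries, against 3.28, 2.23 and 0.872 CPM in subcutaneous libraries (log2 fold change 8.55 ± 0.57, adjusted p = 8.56e-06). Epidermal replicate 1 was the lowest of the 3 epidermal libraries for each of these genes and yet far above every subcutaneous library. Without it, 22 differentiated and 11 basal keratinocyte genes were higher. Perp, a desmosome gene also induced by p53, had 331, 1448 and 1393 CPM in epidermal libraries, against 57.9, 50.8 and 32.4 CPM in subcutaneous libraries (log2 fold change 4.49 ± 0.52, adjusted p = 0.000184).

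Hair follicle and sebaceous gland genes were less one-sided. Of 16 hair follicle genes, 4 were higher, 2 lower and 10 not called, with 2 higher when any 1 subcutaneous library was left out. Krt79, a keratin gene of the follicle opening, had 113, 47.02 and 96.4 CPM in epidermal libraries, against 0.536, 0 and 0.317 CPM in subcutaneous libraries (log2 fold change 8.19 ± 0.68, adjusted p = 2.85e-05), and here epidermal replicate 1 was the highest. Of 14 sebocyte genes, 3 were higher, 4 lower and 7 not called, with 5 higher without epidermal replicate 1. Elovl4, a very long chain fatty acid elongase, had 56.1, 225 and 224 CPM in epidermal libraries, against 2.21, 0 and 0 CPM in subcutaneous libraries (log2 fold change 7.76 ± 1.08, adjusted p = 0.000666). Elovl5, an elongase of unsaturated fatty acids, had 339, 286 and 424 CPM in epidermal libraries, against 1245, 1497 and 1307 CPM in subcutaneous libraries (log2 fold change -1.95 ± 0.19, adjusted p = 7.13e-05). Epidermal replicate 1 was the lowest of its group for Elovl4, as it was for the keratinocyte genes, and Elovl5 was high in all 6 libraries.

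**Figure D3:**
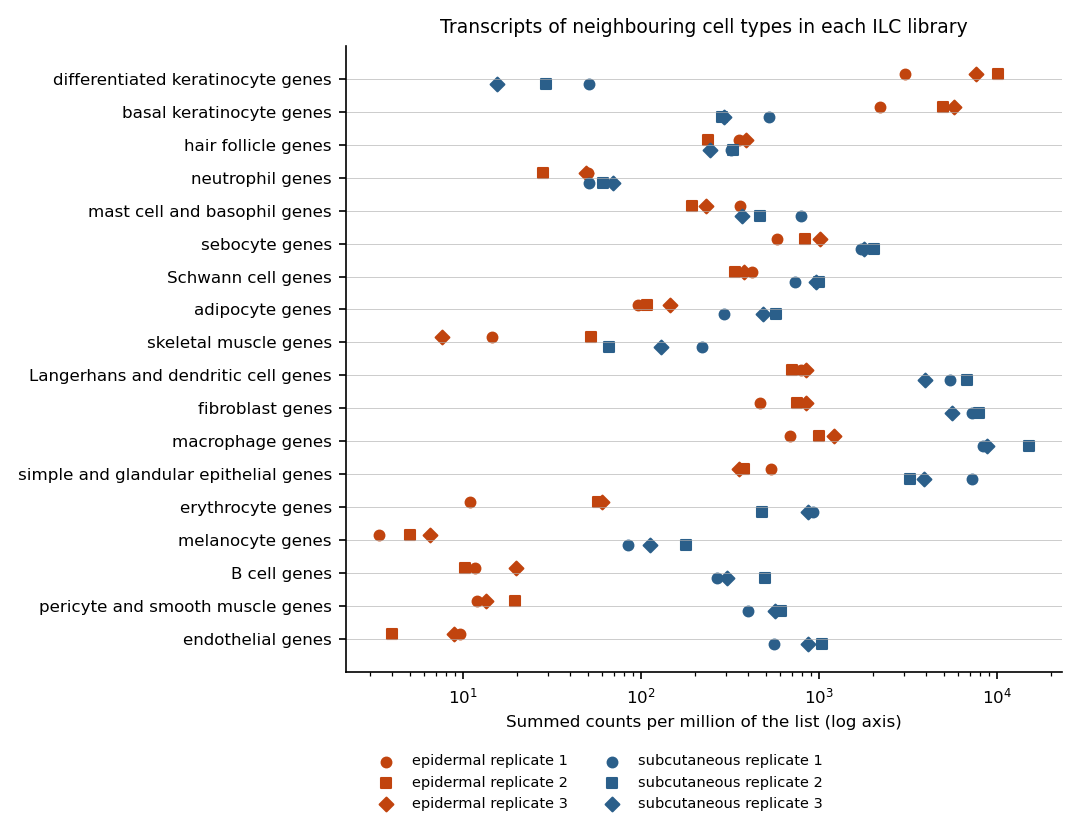
Each row gives the summed CPM (log axis) of one neighbouring cell list in the 3 epidermal (red) and 3 subcutaneous (blue) libraries, with replicates as circles, squares and diamonds. Keratinocyte sums lie right in the epidermal libraries, with replicate 1 lowest, and macrophage, fibroblast, glandular epithelial and endothelial sums lie right in the subcutaneous libraries.

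Genes of stromal and myeloid cells were lower in the epidermal libraries. Of 24 macrophage genes, 0 were higher, 21 lower and 3 not called, with summed levels of 686, 993 and 1206 CPM in epidermal libraries, against 8261, 15161 and 8739.8 CPM in subcutaneous libraries. Mrc1, the mannose receptor gene, had 0, 0 and 0 CPM in epidermal libraries, against 120.2, 341 and 135 CPM in subcutaneous libraries, at least 3509.5-fold lower in epidermal libraries against the floor (adjusted p = 0.0038). Csf1r, the receptor that macrophages depend on, had 0, 0 and 1.49 CPM in epidermal libraries, against 276, 450.3 and 239.6 CPM in subcutaneous libraries (log2 fold change -9.20 ± 1.12, adjusted p = 0.000269). Subcutaneous replicate 2 was the highest for both. Of 18 Langerhans and dendritic cell genes, 0 were higher, 12 lower and 6 not called. H2-Ab1, an MHC class II gene, had 42.1, 44.3 and 48.01 CPM in epidermal libraries, against 924, 1166 and 741 CPM in subcutaneous libraries (log2 fold change -4.40 ± 0.33, adjusted p = 1.53e-05). Cd207, the defining Langerhans cell marker, had 0.271, 0.209 and 1.63 CPM in epidermal libraries, against 0, 0 and 0 CPM in subcutaneous libraries, so it was at or near 0 in all 6.

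Of 20 fibroblast genes, 0 were higher, 20 lower and 0 not called, with summed levels of 466, 746 and 839 CPM in epidermal libraries, against 7179, 7939.9 and 5574 CPM in subcutaneous libraries. Sparc, a matrix protein gene, had 4.12, 7.94 and 10.9 CPM in epidermal libraries, against 399, 751 and 601 CPM in subcutaneous libraries (log2 fold change -6.25 ± 0.45, adjusted p = 1.19e-05). Gsn, which encodes the actin-severing protein gelsolin, had 399, 699.9 and 751 CPM in epidermal libraries, against 1945, 1375 and 1223 CPM in subcutaneous libraries (log2 fold change -1.30 ± 0.29, adjusted p = 0.00974) and was the only fibroblast list member above 100 CPM in epidermal libraries. Of 18 endothelial genes, 0 were higher, 16 lower and 2 not called, with summed levels of 9.54, 3.97 and 8.87 CPM in epidermal libraries, against 556, 1039.6 and 860.4 CPM in subcutaneous libraries. Plvap, a gene of fenestrated vessels, had 0, 0 and 0 CPM in epidermal libraries, against 99.2, 148 and 178 CPM in subcutaneous libraries, at least 2502-fold lower (adjusted p = 8.56e-06). Of 12 pericyte and smooth muscle genes, 0 were higher, 10 lower and 2 not called. Plvap was at 0 in the epidermal libraries and present in the dermal ones, with 162 and 79.7 CPM in dermal CCR6+ libraries and 249.9 and 217 CPM in dermal Sca1+ libraries.

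Some neighbouring cell genes followed other libraries. Of 21 simple and glandular epithelial genes, 0 were higher, 18 lower and 3 not called, and their sums were 538, 378 and 356 CPM in epidermal libraries, against 7247, 3241 and 3857 CPM in subcutaneous libraries, highest in subcutaneous replicate 1. Ltf, which encodes lactoferrin, had 0, 0 and 0 CPM in epidermal libraries, against 201, 197 and 225 CPM in subcutaneous libraries, at least 3664-fold lower (adjusted p = 1.12e-05), and its dermal values were 0 as well. Prlr, the prolactin receptor gene, had 3.47, 16.9 and 11.7 CPM in epidermal libraries, against 589, 267 and 318 CPM in subcutaneous libraries (log2 fold change -5.20 ± 0.57, adjusted p = 0.000137). Of 5 erythrocyte genes, 0 were higher, 5 lower and 0 not called, with sums of 10.8, 56.8 and 60.3 CPM in epidermal libraries, against 918, 475 and 861 CPM in subcutaneous libraries. Of 12 skeletal muscle genes, 0 were higher, 9 lower and 3 not called, with sums of 14.5, 52.3 and 7.58 CPM in epidermal libraries, against 221, 65.9 and 128 CPM in subcutaneous libraries. Subcutaneous replicate 2 was the lowest of its group in these 3 sums, while it was the highest in the macrophage sum. Of 14 mast cell and basophil genes, 1 was higher, 8 lower and 5 not called, and the higher call was lost when any 1 library other than epidermal replicate 1 was left out. Cpa3, a mast cell protease gene, had 0.0542, 0 and 0 CPM in epidermal libraries, against 120.3, 85.7 and 109.7 CPM in subcutaneous libraries (adjusted p = 4.22e-06). That was 1 count over the epidermal libraries, and the ratio of subcutaneous to epidermal CPM was 5576, 95% interval 1000.2 to 220287.

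The remaining neighbouring cell lists leaned the same way. Of 10 adipocyte genes, 1 was higher, 6 lower and 3 not called (0 higher without epidermal replicate 3, subcutaneous replicate 1 or subcutaneous replicate 2), and of 10 B cell genes, 0 were higher, 7 lower and 3 not called, with 4 lower without subcutaneous replicate 1. Of 12 Schwann cell genes, 0 were higher, 6 lower and 6 not called, and of 7 melanocyte genes, 0 were higher, 2 lower and 5 not called. Of 4 neutrophil genes, 0 were higher, 2 lower and 2 not called, and without subcutaneous replicate 2 none of them was called lower.

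Subcutaneous replicate 2 was the highest of its group in the macrophage, endothelial and fibroblast sums and in that of type 1 ILC and NK cell genes. Leaving out genes that are also on a neighbouring cell list, 210 programme genes were called lower. Their median log2 ratio of that library to the other subcutaneous libraries was 0.06, with 58 above 0.5 and 24 below -0.5. Over the 147 neighbouring cell genes called lower the median was 0.39, with 61 above 0.5 and 31 below -0.5. A gene near 0 in the epidermal libraries was tested only because of its subcutaneous counts, so its epidermal level and this ratio are not independent, and no test was made between them.

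**Figure D4:**
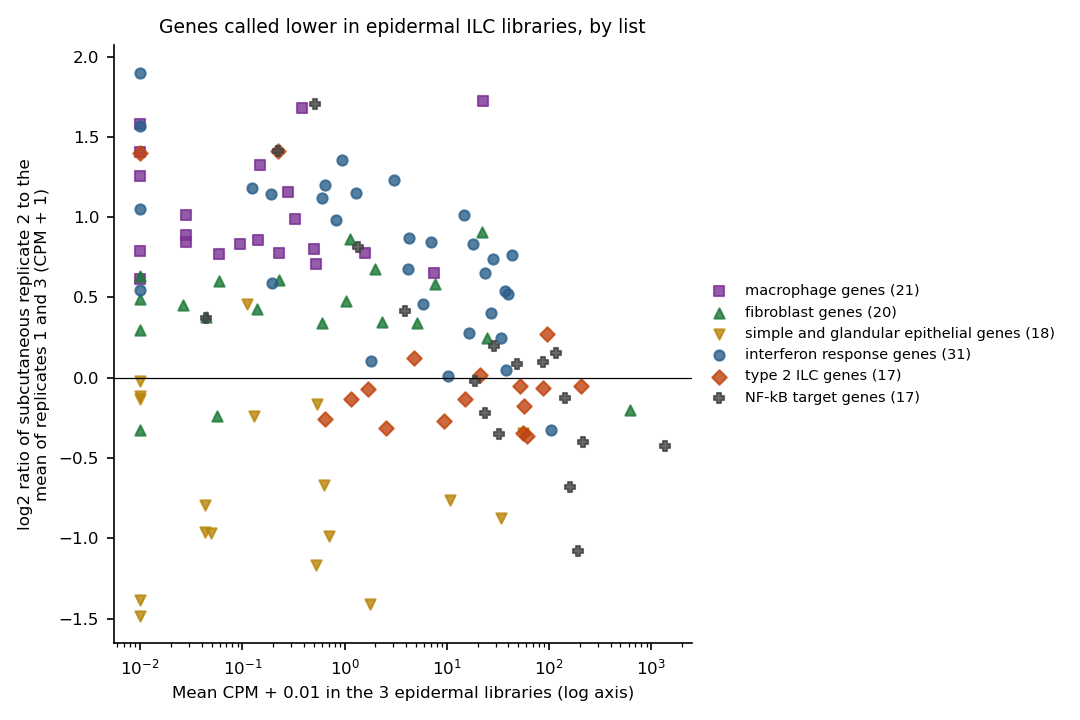
Each point is a gene called lower in epidermal libraries, from 6 lists. The horizontal axis is its mean epidermal CPM plus 0.01 (log axis), and the vertical axis is the log2 ratio of subcutaneous replicate 2 to the mean of replicates 1 and 3. All 21 macrophage genes lie above 0.5, 23 of 31 interferon genes do, and 2 of 17 type 2 genes do.

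Programme genes at or near 0 in the epidermal libraries and highest in subcutaneous replicate 2 included the NK cell genes Gzma, Klra4 and Klra9 given above, with log2 ratios of that library to the others of 4.56, 3.69 and 3.86. They also included scavenger, chemokine and growth factor genes. Cd36, a fatty acid scavenger receptor gene, had 0, 0 and 0 CPM in epidermal libraries, against 113, 399.6 and 197 CPM in subcutaneous libraries, at least 4177-fold lower (adjusted p = 5.91e-05), and 118 and 39.9 CPM in dermal CCR6+ libraries and 105 and 104 CPM in dermal Sca1+ libraries. Igf1, an insulin-like growth factor gene, had 0, 0 and 0 CPM in epidermal libraries, against 25.6, 61.8 and 45.4 CPM in subcutaneous libraries, at least 781-fold lower (adjusted p = 0.0057). Ccl2, a monocyte chemoattractant gene, had 0.759, 0 and 0.743 CPM in epidermal libraries, against 100.1, 303 and 84.6 CPM in subcutaneous libraries (log2 fold change -8.25 ± 0.97, adjusted p = 0.000206). Il6 had 0.596, 0 and 0.0495 CPM in epidermal libraries, against 91.1, 253 and 98.3 CPM in subcutaneous libraries (log2 fold change -9.31 ± 1.07, adjusted p = 0.000184). The genes named above in this paragraph were grouped because subcutaneous replicate 2 was their highest library, so that standing was fixed by the choice. Klrg1 and Il1rl1, also at or near 0 in the epidermal libraries, were highest in other subcutaneous libraries. The part of macrophage, endothelial, fibroblast or NK cell RNA in the grouped genes was not tested.

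Some other genes called lower were not highest in that library. The log2 ratio of subcutaneous replicate 2 to the other subcutaneous libraries was -0.44 for Gata3, -0.19 for Rora, -0.06 for Il2ra and -0.05 for Csf2. It was -0.13 for Traf1 and -0.25 for Klf6. Subcutaneous replicate 2 had the most macrophage and NK cell transcripts of its group, but the least glandular epithelial, erythrocyte and skeletal muscle transcripts. These 6 genes were chosen after their values were seen, and which cells carried them was not tested. Csf1, a macrophage growth factor gene that lymphocytes also make, was lower with 5.53, 5.29 and 5.85 CPM in epidermal libraries, against 181, 108 and 134 CPM in subcutaneous libraries (log2 fold change -4.66 ± 0.27, adjusted p = 4.22e-06), and replicate 2 was its lowest subcutaneous library.

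Among genes called higher, 3 programme genes had at most 3 counts over the subcutaneous libraries: Tnfrsf8, Ereg and Il22ra2. Ereg, an epidermal growth factor family ligand gene, had 1.73, 7.24 and 10.9 CPM in epidermal libraries, against 0, 0 and 0 CPM in subcutaneous libraries (adjusted p = 0.00906), with epidermal replicate 1 the lowest, as for the keratinocyte genes. Tnfrsf8 was not low in epidermal replicate 1. For all 91 programme genes called higher, the median log2 ratio of epidermal replicate 1 to the other epidermal libraries was 0.04, with 18 above 0.5 and 14 below -0.5. For the 41 neighbouring cell genes called higher it was -1.41, with 2 above 0.5 and 34 below -0.5. The part of keratinocyte RNA in single programme genes was not tested.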

How the data were processed

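RNA of sorted mouse skin ILCs was sequenced in 10 libraries made, per the labels' protocols, with a SMART-Seq low input kit and Nextera XT, a method that does not mark strand, so overlapping and antisense genes cannot be told apart. Per the submitters' processing notes the tools were Trimmomatic, STAR and RSEM with mm10; the sources used here give no versions. Per the file headers, RSEM gene results gave an expected count and a TPM for each gene. TPM is the authors' deposited value, scaled by transcript length to a fixed total. RSEM splits reads among near-identical genes, so members of the Klra, Hba-a1 and Hba-a2, Hspa1a and Hspa1b, Ifit3, Ccl3 and Ccl4 and MHC families are uncertain.

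Deposited expected counts were rounded to whole numbers, filtered by group with edgeR (4.0.16, R 4.3.3) at a count minimum of 10 and scaled by TMM. All 10 libraries in 4 groups entered 1 quasi-likelihood fit, with the contrast epidermal minus subcutaneous and Benjamini-Hochberg adjustment over 16208 genes at 0.05. Errors beside a log2 fold change are standard errors. The term called means past that threshold. CPM was computed from these counts, TPM is quoted only where genes are compared. Where a group is at 0, folds are taken against a floor of 3 counts over its libraries, and floors and intervals cover counting error only. Depth was 11627222 to 18118544 counts per library. The scripts were tested on simulated data.

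The gene lists and the members shown were chosen with earlier results of these data known. Genes named by rule were the 12 largest called changes each way above 20 CPM in both groups, among genes whose groups did not overlap. Added were up to 4 called members per lymphocyte list and direction and up to 2 per neighbouring cell list and direction, both by level. Fixed lineage markers were named as well. Other list members named fall outside this rule and were chosen after their values were seen. Gene names and coordinates are those of GRCm38 annotation tables. Alternatives were edgeR with RLE or pan-lymphocyte size factors, DESeq2 1.42.0, limma 3.58.1 on log2(TPM + 1) or log2(TPM + 0.1), other filters, the 6 libraries alone, the replicate number as a block, each library left out and, chosen after seeing the data, epidermal replicate 1 and subcutaneous replicate 2 left out together.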

Additional observations from a re-analysis of the deposited data

How the results depend on the processing

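No gene called in the main fit was called in the opposite direction in the 21 alternatives. Genes higher in epidermal libraries numbered 1113 in the main fit, 698 with pan-lymphocyte size factors, and 2051 and 1969 with limma on log2(TPM + 1) and log2(TPM + 0.1). When 1 library was left out, between 698 (without epidermal replicate 3) and 1065 were higher and between 1582 and 2197 lower, and without epidermal replicate 1 and subcutaneous replicate 2 together 799 were higher and 1535 lower. The median of all genes was -0.35 with pan-lymphocyte factors and 0.11 with log2(TPM + 0.1), against -0.02. Of 217 called genes named by the rule, 14 lost the call with pan-lymphocyte factors, 11 with limma, 0 with DESeq2 (4 had no adjusted p), 7 to 31 when 1 library was left out and 31 without both libraries. Among genes not called, the log2 fold change of Il22 lay between -2.28 and 3.30 when 1 library was left out, and was 3.30 without subcutaneous replicate 2. Summed levels of every epidermal library were above every subcutaneous one in 5 lists by CPM and in 9 by TPM, and below in 34 and 29. The log2 ratio of summed alarmin receptors was 0.27 by TPM, the opposite sign to CPM. The causes were not tested. With the replicate block 895 genes were higher and 1772 lower in the fit of all libraries, and 1085 and 2145 with the 6 libraries alone. Deviations of same-numbered libraries had correlations of 0.114, 0.0174 and -0.0219, and not every library correlated best with its own number. With 3 libraries in each group, these values cannot decide whether same-numbered samples were paired. Genes at 3 counts or fewer in a group cannot be placed below that floor at this depth.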
